A study of Mus musculus with 8 samples.

Results

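The 50 protein-coding genes of the mouse annotation whose symbol begins with Psma, Psmb, Psmc, Psmd, Psme, Psmf or Psmg and a number were examined, out of 52502 annotated genes with exon counts, 21891 of them protein-coding. They encode the subunits, assembly factors, activators and inhibitor of the proteasome, with 1 exception: Psmc3ip carries a matching symbol but is a meiotic recombination gene, and it held 1 count in all. RNA came from germinal vesicle (GV) oocytes, fully grown oocytes held in meiotic prophase, of C57BL/6 females given as 20 days old (3 weeks in another field), taken at a diameter of at least 70 µm 48 hours after 5 IU of PMSG, a gonadotropin that stimulates follicle growth. The control group (4 libraries) had the genotype Kiaa1429F/+;Zp3-Cre, so that controls too carried the recombinase and 1 floxed allele. The knockout group, cKO (4 libraries), had the genotype Kiaa1429F/F;Zp3-Cre. Kiaa1429, now Virma, encodes a subunit of the enzyme complex that methylates RNA at adenosines to give N6-methyladenosine (m6A), and the Zp3 promoter drives Cre in growing oocytes. Each library pooled about 20 oocytes. The labels speak of separate experiments but tie no library to an animal, and a p-value here therefore reflects variation among libraries.

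The proteasome is the protease that breaks down proteins tagged with ubiquitin. Its barrel-shaped core particle, the 20S particle, stacks rings of alpha subunits (Psma genes), which gate the entrance, on rings of beta subunits (Psmb genes), some of which carry the active sites. The 19S regulatory particle caps the core: its ATPases (Psmc genes) unfold substrates, and its non-ATPase subunits (Psmd genes) bind ubiquitin chains and remove them. Dedicated chaperones assemble both particles, and other caps (Psme genes) activate the core without ubiquitin. In oocytes, destruction of cyclin B and securin by the proteasome lets meiosis proceed.

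Control libraries held 4247471 to 4790038 exon counts and cKO libraries 4399190 to 5064008. Levels are given in CPM, counts per 1000000 after TMM scaling between libraries, as mean ± SD over 4 libraries a group. Virma had 67.9 ± 11.2 CPM in the controls against 19.4 ± 3.26 CPM in the cKO (n = 4 each), with no overlap. The summed oocyte markers Zp1, Zp2, Zp3, Gdf9, Bmp15, Ooep, Nlrp5, Padi6, Figla and Npm2 ranged from 33711 to 46509 CPM in controls and from 17903 to 21490 CPM in the cKO, none of them at 0. Bmp15 (18799 and 7334 CPM) and Gdf9 (13582 and 8130 CPM) made up most of that sum and of its difference. Of the 10 oocyte markers 5 were called lower and 5, among them Zp2, Zp3 and Figla, were not called, with a median log2 fold change of -0.32. The summed cumulus and granulosa markers (10 genes, none at 0) ranged from 200.2 to 357.7 CPM in controls and from 400.6 to 689.0 CPM in the cKO. Nr5a2 (138.7 and 322.8 CPM) and Inha (66.1 and 173.5 CPM) carried most of that difference. Of 8 tested markers of this list 3 were called higher and 2, Cyp19a1 (27.4 and 12.6 CPM) and Fshr (19.6 and 6.25 CPM), lower. The sum of 8 immune markers, of which Ptprc, Cd74 and Adgre1 held no count, was 5.00 CPM in the controls and 12.3 CPM in the cKO, mostly through C1qa. Laptm5, the only other tested marker of this list, was not called. Reads that met several exon IDs, which are not counted, made up 73.8 ± 1.07% of control reads and 79.3 ± 0.751% of cKO reads, and reads outside exons made up 9.86% to 12.0% and 5.01% to 6.19% (the ranges over 4 libraries each). Each of these 5 differences (3 marker sums and 2 shares of reads) had an exact permutation p = 0.0286, 2-sided, the smallest that 4 against 4 libraries can give, and 0.0367 after Benjamini-Hochberg adjustment over 9 values tested. Their part in the results on proteasome genes was not tested. In pools of whole oocytes, fewer cells of a type and less RNA per cell cannot be told apart.

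Of the 50 genes, 28 held enough counts to be tested and 22 did not. Among the 28, 6 were higher in the cKO and 1 was lower at an adjusted p under 0.05 (quasi-likelihood test of edgeR, Benjamini-Hochberg adjusted over all 10673 tested genes). Psmd7, Psmb5, Psmd9, Psme2b, Psma2 and Psma3 were higher and Psmb11 was lower. Over all tested genes, 54.9% were called, 27.0% higher and 27.9% lower. Over the 7991 tested protein-coding genes the figures were 53.9%, 30.4% and 23.5%. Within the 28, the groups did not overlap in 7 genes that stood higher and 1 that stood lower. The share over all tested genes was 25.0% higher and 25.1% lower (50.1% in either direction). The proteasome genes showed few large differences. Their median log2 fold change (cKO over control) was 0.10, with quartiles of -0.20 and 0.57, whereas all tested genes had a median of 0.02 with quartiles of -0.65 and 0.61 and tested protein-coding genes one of 0.10 with quartiles of -0.47 and 0.70. A difference of more than 2-fold either way was seen in 3 of the 28 (10.7%), against 32.2% of all tested genes and 29.3% of tested protein-coding genes. These are counts and medians with no test, and the tested genes are those that were countable, not all proteasome genes.

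**Figure D1:**
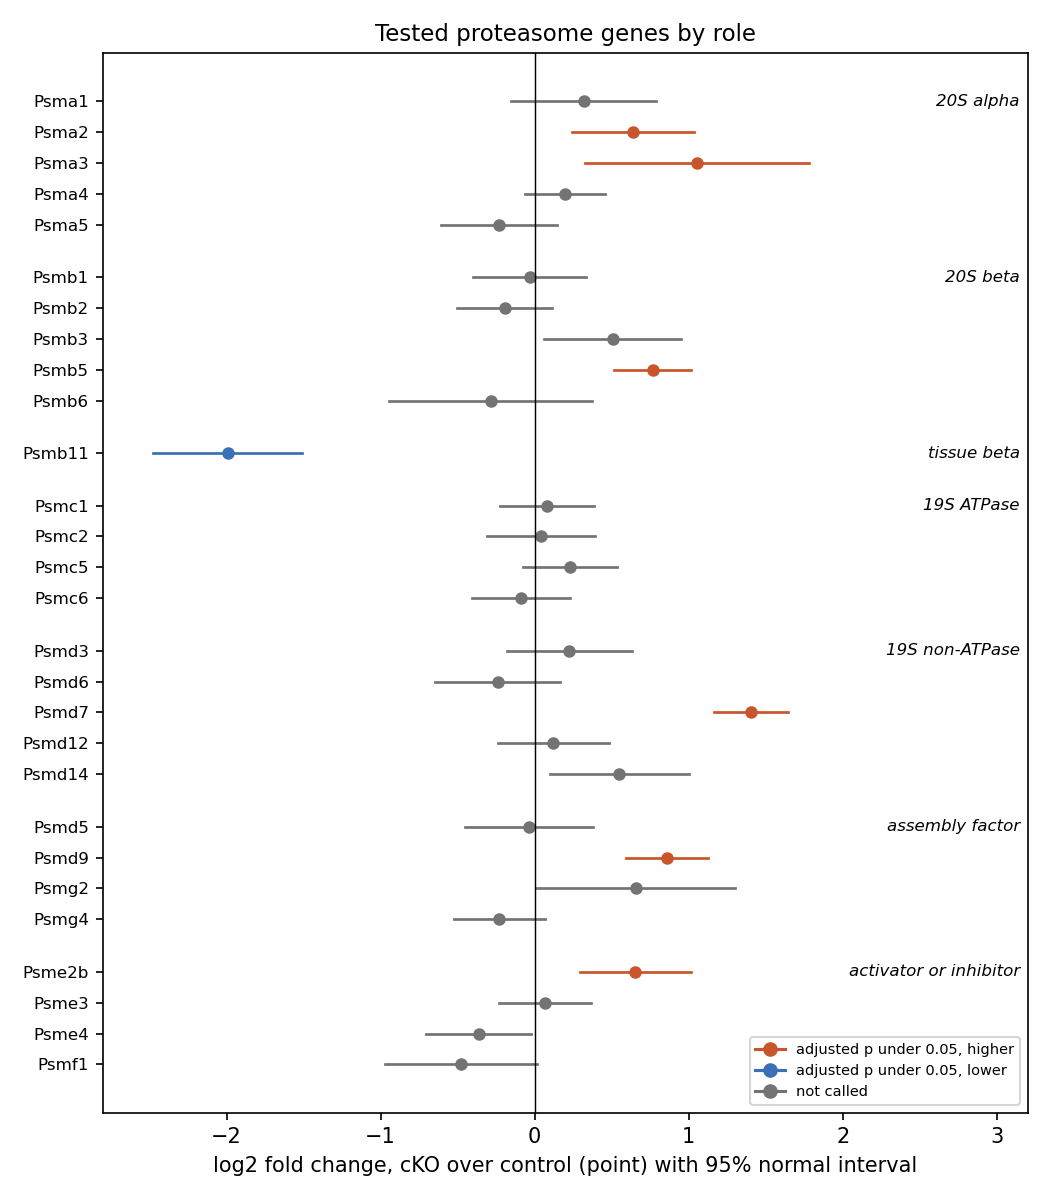
Log2 fold change (cKO over control) of the 28 tested proteasome genes by role, with 95% normal intervals. Orange points were called higher, the blue point lower, and grey points were not called. Normal intervals are narrower than the test: those of Psme4 and Psmg2 leave out 0 at an unadjusted p of 0.0536 and 0.0649 (edgeR). The 19S ATPases sit between -0.09 and 0.23, while Psmd7 lies at 1.41 and Psmb11 at -1.99.

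The largest rise among the tested proteasome genes was in a non-ATPase subunit of the 19S particle. Psmd7 (ENSMUSG00000039067.5, chromosome 8, 107580381 to 107588464, minus strand, mm10) encodes the subunit that pairs with the deubiquitinase Psmd14 in the lid of the particle. It stood at 225.6, 261.2, 208.1 and 201.4 CPM in control libraries 1 to 4 and at 608.4, 587.7, 610.3 and 570.7 CPM in cKO libraries 1 to 4. Every cKO library was above every control library. The means were 224.0 ± 26.8 and 594.3 ± 18.7 CPM (SD, n = 4 each), a log2 fold change of 1.41 (SE 0.12, edgeR adjusted p = 2.91e-07). Nearly all of its counts lay on its last exon (107580381 to 107581319, coding and 3' UTR), with 3602 counts summed over control libraries and 11237 over cKO libraries. An internal coding exon (107582382 to 107582473) had 21, 21, 19 and 31 control counts against 45, 31, 24 and 45 cKO counts. The ratio of the mean levels, cKO over control, was 1.34 for the internal exon and 2.69 for the last. The usage difference of the internal exon was -0.98 on the log2 scale (adjusted p = 0.0118, diffSpliceDGE of edgeR), which lost its call without control library 4 (adjusted p = 0.132) or without cKO library 3 (adjusted p = 0.0862). With all last exons left out, the log2 fold change of Psmd7 was 0.62 and the gene was no longer called (edgeR adjusted p = 0.0528); over all alternatives its adjusted p ran from 1.52e-27 to 0.0528.

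The last exon of Psmd7 is shown here because the knocked-out gene belongs to the m6A writer complex, whose usual target is an adenosine within the letters GGACT or near variants of them. Searched on the transcript strand, GGACT occurs at 2 places in that exon, given with 8 flanking bases on each side and the motif in capitals. The first window is chr8:107581284-107581304 and the second chr8:107581240-107581260 (minus strand, mm10, from the GENCODE M21 transcript sequence).
Psmd7 window 1: tacagtggGGACTctctccca
Psmd7 window 2: gcttgaagGGACTgaactcca
The letters are common: GGACT occurs in the most counted last exon of 65.9% of 10100 tested genes, at 0.932 matches per kb in the pooled exons. Among proteasome genes it occurs in 13 of 25 such exons (52%), at 0.855 per kb. A match is a description of the sequence, since m6A itself was not measured.

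The other 4 tested non-ATPase subunits were not called. Psmd14, the deubiquitinase of the particle, stood at 20.4, 17.5, 8.94 and 18.3 CPM in the controls and at 28.6, 22.7, 22.6 and 21.9 CPM in the cKO. Its groups did not overlap, but the log2 fold change of 0.55 missed the threshold (SE 0.23, edgeR adjusted p = 0.0541). It was called under 7 of 18 alternative settings, among them the scaling by upper-quartile factors (adjusted p = 0.0475) and DESeq2 (adjusted p = 0.0444); over the 18, its adjusted p ran from 2.24e-05 to 0.899. Psmd3 and Psmd12, subunits of the lid, had log2 fold changes of 0.23 (95% interval -0.18 to 0.63) and 0.12 (-0.24 to 0.48). Psmd6, another lid subunit, had one of -0.24 (-0.65 to 0.17). The remaining 6 non-ATPase subunits were barely countable: Psmd1 held 32 counts in controls and 37 in the cKO, Psmd11 held 18 and 16, Psmd4, a ubiquitin receptor, held 2 and 3, Psmd2 held 1 and 2, Psmd13 held 1 and 1, and Psmd8 held none.

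The 19S ATPases, the ring of motors that unfolds substrates, showed no called member. Of 6 ATPases 4 were tested, and their log2 fold changes were 0.08 for Psmc1 (95% interval -0.23 to 0.38), 0.04 for Psmc2 (-0.31 to 0.39), 0.23 for Psmc5 (-0.07 to 0.54) and -0.09 for Psmc6 (-0.41 to 0.23). None of the 4 had an unadjusted p under 0.05 in edgeR or in DESeq2. The intervals leave out a rise as large as that of Psmd7, whose own interval runs from 1.17 to 1.65. Psmc6 was the deepest of them, with 143.7, 100.5, 118.4 and 165.3 CPM in the controls and 120.1, 136.6, 105.1 and 134.8 CPM in the cKO. The groups overlapped throughout. Psmc5 alone passed the threshold when libraries were scaled by size only (0.39, edgeR adjusted p = 0.0439) or when last exons were left out (0.40, adjusted p = 0.0469), with adjusted p values from 0.0439 to 0.452 over all alternatives. Psmc3 held 1 and 3 counts and Psmc4 held 2 and 4.

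In the alpha ring 5 of 8 genes were tested, and 2 rose. Psma2 (chromosome 13, 14613240 to 14674236, plus strand) stood at 12.0, 12.9, 12.4 and 17.5 CPM in the controls and at 24.4, 18.5, 17.8 and 24.5 CPM in the cKO. Its highest control lay just under its lowest cKO library, and the log2 fold change was 0.64 (SE 0.20, edgeR adjusted p = 0.0143). Psma3 (chromosome 12, 70974621 to 70996347, plus strand) had 3.55, 2.15, 1.32 and 2.00 CPM in the controls and 3.77, 3.61, 3.65 and 7.86 CPM in the cKO, a log2 fold change of 1.05 (SE 0.37, edgeR adjusted p = 0.0252). This rested on few counts, 38 in all controls and 93 in all cKO libraries, and on cKO library 4 in part: without it the log2 fold change was 0.68 (adjusted p = 0.128). The call was also lost without control library 2, 3 or 4 (adjusted p = 0.0501, 0.0655 and 0.0564), and the adjusted p ran from 0.0125 to 0.128 over the alternatives. The counted exon of Psma3 overlaps 3110056K07Rik on the other strand, and libraries without strand cannot tell the 2 apart. Psma1, Psma4 and Psma5, also ring subunits, had log2 fold changes of 0.32 (95% interval -0.15 to 0.79), 0.20 (-0.06 to 0.46) and -0.23 (-0.61 to 0.15) and were not called. The most counted exon of Psma5 overlaps 1700010K24Rik on the other strand, with the same limit as for Psma3. Psma7 held 7 counts in controls and 18 in the cKO. Psma8, the variant of Psma7 used in the testis, held 23 and 46, and Psma6 held none.

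In the beta ring 5 of 7 genes were tested and Psmb5 rose. Psmb5 (ENSMUSG00000022193.7, chromosome 14, 54614119 to 54618022, minus strand) encodes the subunit with the chymotrypsin-like active site, the one that proteasome inhibitors such as bortezomib bind. It stood at 100.7, 121.1, 103.4 and 94.6 CPM in the controls and at 191.4, 172.7, 176.5 and 174.1 CPM in the cKO, with no overlap. The log2 fold change was 0.77 (SE 0.13, edgeR adjusted p = 0.000123). All 3 of its exons stood higher: the first (54617794 to 54618008) went from 41.9 ± 7.18 to 70.2 ± 5.72 CPM, the middle one from 1.02 ± 0.291 to 2.07 ± 0.655 CPM and the last (54614119 to 54614481) from 62.0 ± 4.16 to 106.4 ± 4.91 CPM. Psmb6, which carries the caspase-like site, stood at 1.77, 3.59, 2.63 and 2.75 CPM in the controls and at 1.77, 3.19, 1.93 and 1.87 CPM in the cKO. That difference was not called (-0.29, 95% interval -0.95 to 0.37), and the interval is wide because the gene held 44 and 42 counts. All of them lay on exons of retained-intron transcripts without coding bases, 42 and 39 of them on that of Psmb6-202. The coding exons of Psmb6 were therefore not measured. Psmb7, with the trypsin-like site, was too thin to test at 16 and 12 counts. Of the subunits without an active site, Psmb1 and Psmb2 had log2 fold changes of -0.03 (-0.40 to 0.33) and -0.19 (-0.50 to 0.11), and Psmb3 one of 0.51 (SE 0.23, edgeR adjusted p = 0.0717). Psmb4 held 26 and 57 counts.

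Psmb11 was the only tested gene among the beta subunits that replace standard ones in particular tissues, and the only proteasome gene called lower. It encodes the beta subunit of the thymoproteasome, known from the cortical epithelium of the thymus. Its single counted exon (chromosome 14, 54625310 to 54629556, plus strand) stood at 22.0, 25.1, 20.5 and 12.5 CPM in the controls and at 6.20, 4.89, 4.51 and 4.49 CPM in the cKO. The groups did not overlap, and the log2 fold change was -1.99 (SE 0.25, edgeR adjusted p = 8.42e-06). Of 4 markers of thymic cortical epithelium only Foxn1 could be tested, and it was higher, with 2.75 to 4.88 CPM in the controls and 13.5 to 18.5 CPM in the cKO. The others were nearly uncounted, with 1 control and 1 cKO count for Prss16, 2 and 6 for Ccl25 and 12 and 31 for Ly75. The sum of the 4, mostly Foxn1, was 4.47 CPM in the controls and 17.8 CPM in the cKO (exact permutation p = 0.0286). The counted exon of Psmb11 lies 7287 bases from the upstream end of Psmb5, on the opposite strand, so that 2 proteasome genes lying close together moved in opposite directions. Psmb8, Psmb9 and Psmb10, the interferon-inducible subunits of the immunoproteasome, held 1 count in controls and 7 in the cKO, none, and none.

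Of 7 assembly factors 4 were tested and 1 rose. Psmd9, a chaperone that binds the ATPases during assembly of the 19S base (chromosome 5, 123169413 to 123250131, plus strand), stood at 66.1, 74.9, 75.8 and 57.3 CPM in the controls and at 128.5, 119.4, 123.4 and 126.0 CPM in the cKO. The groups did not overlap (log2 fold change 0.86, SE 0.14, edgeR adjusted p = 8.31e-05), and the last coding exon held 99.5% of the counts. Psmd5, a second chaperone of the base, had a log2 fold change of -0.04 (95% interval -0.45 to 0.38). Psmg2 and Psmg4, which help to build the alpha ring, had log2 fold changes of 0.66 (SE 0.33, edgeR adjusted p = 0.106) and -0.23 (-0.52 to 0.07). Psmd10, the third chaperone of the base, held 12 and 13 counts, Psmg1 held 1 and 2, and Psmg3 held 4 and 2.

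**Figure D2:**
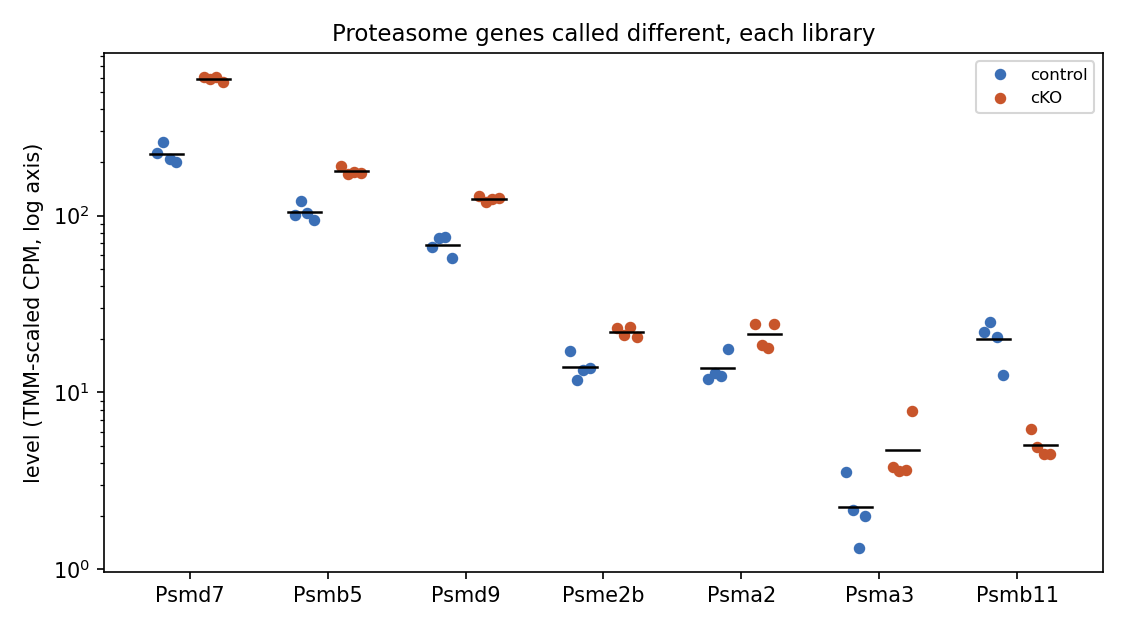
Level (TMM-scaled CPM, log axis) of the 7 called proteasome genes in each of the 4 control (blue) and 4 cKO (orange) libraries, with the group mean as a bar. The groups do not overlap in any of the 7, and the closest pair is Psma3, where the highest control (3.55 CPM) nearly meets the lowest cKO library (3.61 CPM).

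Among activators and the inhibitor, Psme3 and Psme4 were well covered and not called. Psme3 encodes the nuclear activator PA28gamma and stood at 277.0, 352.6, 339.1 and 227.6 CPM in the controls and at 294.0, 306.4, 369.9 and 280.9 CPM in the cKO (log2 fold change 0.06, 95% interval -0.23 to 0.36). Psme4 encodes PA200, an activator known for histone breakdown in germ cells. It stood at 138.0, 144.6, 97.8 and 146.3 CPM in the controls and at 84.2, 116.7, 124.5 and 84.1 CPM in the cKO. The groups overlapped, and the log2 fold change of -0.36 was not called (SE 0.17, edgeR adjusted p = 0.0895). It passed in a fit of protein-coding genes alone (adjusted p = 0.0341) and without control library 3 (adjusted p = 0.0194), the control with the lowest level, and its adjusted p ran from 0.0194 to 0.819 over the alternatives. Psme2b had 11.7 to 17.1 CPM in the controls and 20.6 to 23.4 CPM in the cKO, and its log2 fold change of 0.65 passed (SE 0.18, edgeR adjusted p = 0.00686). This gene is a single-exon copy that shares 96.5% of 837 bases with Psme2, a subunit of the activator PA28, and it lies within the annotated spans of 2 other genes, so that its counts are uncertain. Psme2 itself held 0 and 1 counts and its partner Psme1 none.

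The summed level of all 50 genes was 1549 ± 44.2 CPM in the controls and 2048 ± 53.5 CPM in the cKO (SD, n = 4 each), a ratio of 1.32. Most of the difference lay in 2 genes. Without Psmd7 and Psmb5 the sums were 1220 ± 7.81 and 1275 ± 41.3 CPM, a ratio of 1.05. Psmd7 made up 14.5% of the summed CPM in controls and 29.0% in the cKO, and the non-ATPase subunits together went from 303.5 to 686.6 CPM. The ATPases stayed at 232.2 and 233.0 CPM and the activators and inhibitor at 452.9 and 443.1 CPM. The sums are descriptions of countable reads and carry no test.

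**Figure D3:**
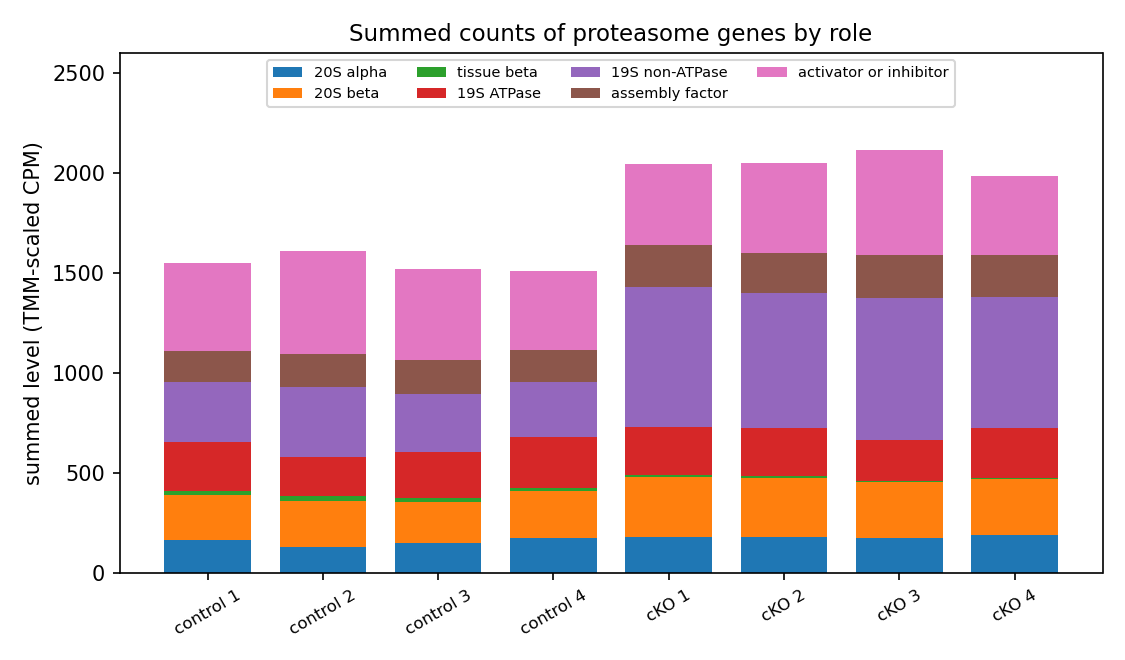
Summed level (TMM-scaled CPM) of the proteasome genes in each library, stacked by role. The 4 cKO libraries reach 1983 to 2114 CPM and the 4 controls 1511 to 1610 CPM, and the purple segment of 19S non-ATPase subunits, which holds Psmd7, differs most in height.

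Exon-level counts set apart genes whose exons changed unequally, whether or not the gene total was called. Of the 11 proteasome genes with at least 2 testable exons, 4 had unequal change between exons (Psmf1, Psmd5, Psmd14 and Psmd7; gene-level Simes test of diffSpliceDGE, adjusted p = 3.91e-06, 0.000138, 0.00581 and 0.0124), against 23.6% of the 2847 genes tested in this way. The exons concerned in the first 3 genes belong to transcripts annotated as non-coding or to untranslated exons.

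Psmf1, which encodes the proteasome inhibitor PI31, showed the clearest case. As a gene it was not called (log2 fold change -0.48, SE 0.25, edgeR adjusted p = 0.125). Its first exon in the protein-coding transcript Psmf1-202 (chromosome 2, 151744003 to 151744186, minus strand, no coding bases) went from 22, 20, 22 and 25 counts in control libraries 1 to 4 to 5, 2, 6 and 6 in cKO libraries 1 to 4. That exon lies upstream of the region around the RefSeq start site of Psmf1 (151741261 to 151741560). The last exon of the retained-intron transcript Psmf1-203 (151727446 to 151729676) went from 2, 0, 3 and 2 control counts to 17, 12, 25 and 16 cKO counts. The 2 exons moved in opposite directions without overlap. Of the counts on these 2 exons, the retained-intron exon had 6.94 ± 5.03% in the controls and 79.1 ± 5.48% in the cKO (SD, n = 4 each), with usage differences of 3.35 for it and -2.09 for the first exon on the log2 scale. Summed over last exons only, Psmf1 was called higher (log2 fold change 2.64, edgeR adjusted p = 0.000112), and with last exons left out it was called lower (-1.61, adjusted p = 0.00016). The last exon that codes for protein held 2 and 0 counts, so the coding end of the transcript was not measured.

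Psmd5 differed upstream of its usual start. An exon of the processed transcript Psmd5-205 (chromosome 2, 34871108 to 34872210, minus strand, no coding bases), whose nearer end lies 146 bases upstream of the RefSeq start site at 34870962, had 27, 32, 25 and 29 control counts against 10, 6, 0 and 6 cKO counts. The last coding exon (34849734 to 34852833) had 55, 61, 109 and 58 control counts against 79, 102, 120 and 135 cKO counts. The upstream exon fell from 29.8 ± 7.48% to 5.26 ± 4.64% of the counts on both (usage difference -2.53, adjusted p = 0.00014, diffSpliceDGE), while the gene total did not pass.

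Psmd14 differed in the middle of the gene. The first exon of its processed transcript Psmd14-208 (chromosome 2, 61765386 to 61765508, plus strand) had 15, 10, 7 and 11 control counts against 47, 30, 37 and 52 cKO counts. An internal coding exon 386 bases before it (61764849 to 61764999) had 10 control counts and 40 cKO counts. The last coding exon (61799982 to 61800376) had 72, 61, 24 and 55 control counts against 66, 68, 52 and 58 cKO counts, with overlap. The share of the non-coding exon rose from 17.6 ± 3.57% to 40.3 ± 6.97% (usage difference 1.24, adjusted p = 0.00565, diffSpliceDGE). Measured on last exons only, Psmd14 had a log2 fold change of -0.04, and with last exons left out one of 1.91 (edgeR adjusted p = 2.24e-05). Psmb3 had a like layout that was not called: its retained-intron exon (chromosome 11, 97706798 to 97708064) held 34 and 81 counts, and its internal coding exon (97711102 to 97711279) 73 and 90.

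**Figure D4:**
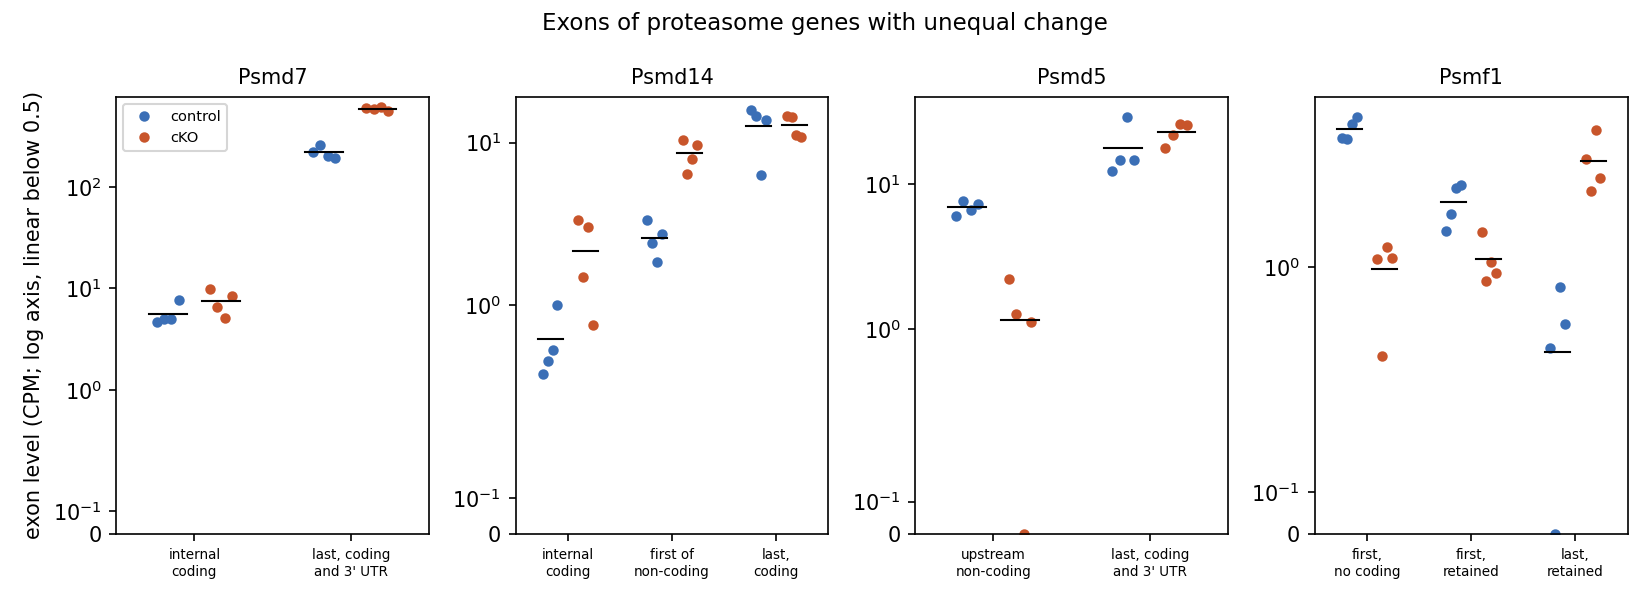
Level (CPM, log axis that is linear below 0.5) of the exons of Psmd7, Psmd14, Psmd5 and Psmf1 in each control (blue) and cKO (orange) library, with group means as bars; "retained" marks exons of retained-intron transcripts. In Psmf1 the first exon is lower and the last retained-intron exon higher in all 4 cKO libraries, while the last coding exon of Psmd14 overlaps between groups.

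Genes differed in how much of them could be counted. Tested proteasome genes had a median of 14.5 exon IDs and 1840 countable bases (bases under 1 exon ID only), and those not tested a median of 21.5 exon IDs and 1040 such bases. The 5 genes at 0 counts, Psmd8, Psma6, Psme1, Psmb10 and Psmb9, had a median of 678 countable bases. On last exons alone the median was 1150 countable bases in tested genes, 161 in those not tested and 43 in the 5 at 0 counts. The relation was loose. Psmg4 with 367 countable bases, 5 of them on last exons, held 1080 control and 1069 cKO counts. Psmb9 with 1939 (43 on last exons) and Psmd8 with 1618 (888 on last exons) held none. A count of 0 allows up to 3 counts in a library, 0.562 to 0.789 CPM of countable reads, for counting error only, and says nothing of reads set apart because they met several exon IDs. Of 1095 exon IDs in the 50 genes, 170 held any count. The share of proteasome genes tested was 56%, against 36.5% of all protein-coding genes.

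**Figure D5:**
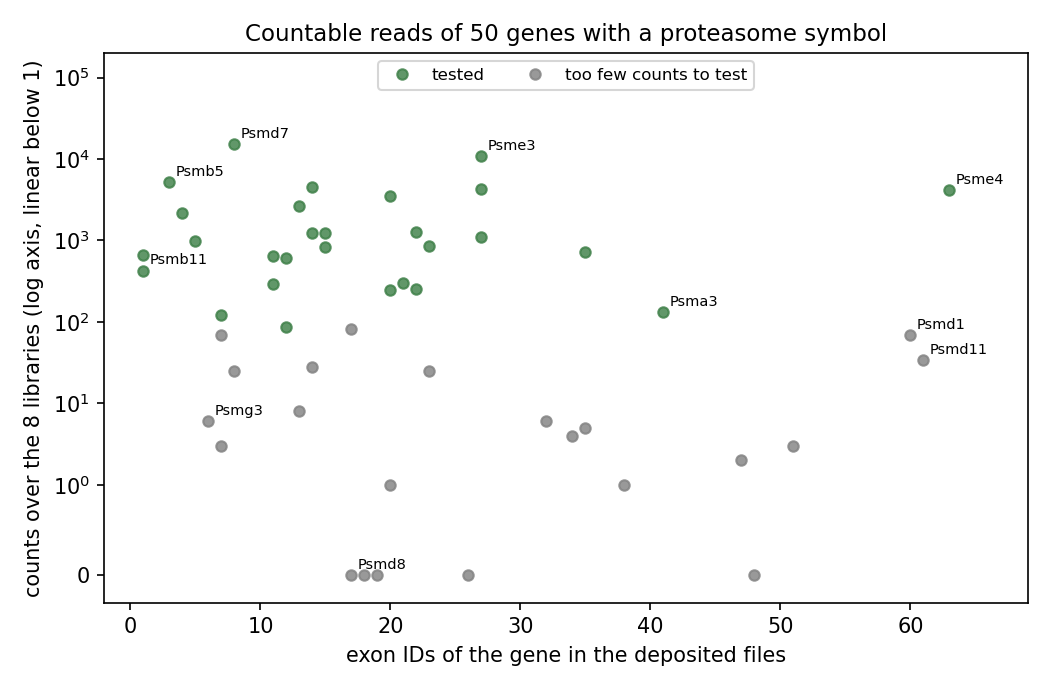
Counts over the 8 libraries (log axis, linear below 1) against the number of exon IDs of each of the 50 genes, with tested genes in green and the others in grey. Psmd1 and Psmd11, with over 50 exon IDs each, stay under 100 counts, whereas Psmb5 with 3 exon IDs passes 1000.

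Other genes of the ubiquitin-proteasome system were read from a list of 36, of which 23 were tested, 6 rose and 2 fell (median log2 fold change 0.20). Over all tested genes 27.0% were higher and 27.9% lower, so the number that rose is near the share over all genes. With library size as the only scaling the split was 8 and 0, and with upper-quartile factors 6 and 1. Among the tested genes of the list, regulators of subunit genes included the largest rises. Usp14, a deubiquitinase bound to the particle and named here after its values were seen, held 2 control and 37 cKO counts, too few to be tested with the filter, and was called higher without it. Nfe2l2, the transcription factor Nrf2 that activates antioxidant and some proteasome genes, stood at 226.0, 217.1, 216.7 and 245.6 CPM in the controls and at 826.0, 847.0, 832.5 and 945.4 CPM in the cKO (log2 fold change 1.93, SE 0.12, edgeR adjusted p = 1.07e-08). Nfyb and Nfyc, subunits of the CCAAT-binding factor NF-Y, had log2 fold changes of 2.12 (SE 0.49, on a mean of 1.06 CPM in controls, adjusted p = 0.00181) and 0.35 (adjusted p = 0.0208). Nfya, the remaining subunit of NF-Y, was too thin to test, with 16 control and 6 cKO counts, lower in the cKO. Its libraries held 3, 2, 6 and 5 counts in the controls and 1, 2, 1 and 2 in the cKO, so that the groups stood apart only after scaling. The call of Nfyc was lost under 6 settings, with adjusted p values up to 0.0817. Nfe2l1, the transcription factor that restores subunit expression when proteasomes are inhibited, held 0 counts, and Ddi2, the protease that activates it, had a log2 fold change of -0.37 (adjusted p = 0.0331), a call lost under 8 settings. Ubb, a gene for polyubiquitin, had one of -0.25 (adjusted p = 0.0489), lost under 12 settings. The shuttle factors Ubqln2 and Ubqln4, which carry ubiquitinated proteins to the proteasome, rose (log2 fold changes 1.17 and 0.83), as did the proteasome-bound ligase Ube3c (0.72, but -0.09 with last exons left out). Pomp, the maturation factor of the core, had a log2 fold change of 0.22 (SE 0.20, edgeR adjusted p = 0.378).

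Genes of antigen presentation, which work beside the immunoproteasome, were read from a list of 10, of which 4 were tested and 1 rose. H2-D1, a class I heavy chain, was at 0.419 ± 0.218 CPM in the controls against 9.63 ± 2.36 CPM in the cKO (n = 4 each, log2 fold change 4.42, SE 0.39, edgeR adjusted p = 3.2e-07). B2m, Irf1 and Tapbp had log2 fold changes of -0.32, 0.25 and 0.22 (adjusted p = 0.126, 0.166 and 0.316, edgeR) and were not called. The sum of the immune markers, given above, was higher in the cKO as well, mostly through C1qa (0 to 0.444 CPM in the controls, 4.67 to 8.38 CPM in the cKO). Laptm5, the other tested marker of that list, stood at 4.12 and 3.53 CPM and was not called (edgeR adjusted p = 0.551). Lyz2 held 6 control and 5 cKO counts, Cd68 held 4 and 13, and Cd3e held 2 and 15. The part of the immune markers in the level of H2-D1 was not tested.

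Since regulators of proteasome promoters were among these genes, the promoters of the proteasome genes were searched for their motifs on both strands: CCAAT, the core bound by NF-Y, and TGACNNNGC, the core of the antioxidant response element bound by Nrf2 and its relatives. Windows ran from 250 bases before to 50 after the RefSeq start site (GRCm38.p6), and 42 of the 50 genes had at least 1 (45 windows in all). Among the genes called different, Psmb5 and Psmd9 held TGACNNNGC, first base at -47 and -31 from the start. Both are printed with the motif in capitals, with the window of Psmb11, the neighbour of Psmb5 that fell, whose capitals mark CCAAT at -155. They lie at chr14:54617946-54618245 (minus strand), chr5:123227940-123228239 (plus strand) and chr14:54625060-54625359 (plus strand).
Psmb5 promoter: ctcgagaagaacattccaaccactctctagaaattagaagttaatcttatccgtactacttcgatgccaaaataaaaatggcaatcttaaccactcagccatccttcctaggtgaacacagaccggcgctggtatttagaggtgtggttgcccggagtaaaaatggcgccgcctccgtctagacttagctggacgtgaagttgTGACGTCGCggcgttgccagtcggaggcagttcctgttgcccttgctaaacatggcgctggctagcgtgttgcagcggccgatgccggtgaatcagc
Psmd9 promoter: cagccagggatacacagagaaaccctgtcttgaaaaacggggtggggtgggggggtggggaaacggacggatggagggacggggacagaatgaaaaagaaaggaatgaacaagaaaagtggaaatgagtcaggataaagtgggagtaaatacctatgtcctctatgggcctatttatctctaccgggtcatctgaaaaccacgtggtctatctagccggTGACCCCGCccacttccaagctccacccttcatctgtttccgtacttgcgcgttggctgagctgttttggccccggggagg
Psmb11 promoter: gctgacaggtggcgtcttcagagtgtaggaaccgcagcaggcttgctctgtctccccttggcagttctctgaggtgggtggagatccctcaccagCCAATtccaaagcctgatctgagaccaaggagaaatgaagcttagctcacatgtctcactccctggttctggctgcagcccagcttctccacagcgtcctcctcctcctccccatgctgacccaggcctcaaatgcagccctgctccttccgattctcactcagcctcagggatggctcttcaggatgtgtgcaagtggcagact
Counting a gene where any of its windows held the motif, TGACNNNGC occurred in 6 of the 42 proteasome genes (14.3%) and in 15.0% of 16506 protein-coding genes with a window, and CCAAT in 15 of 42 (35.7%) and 42.0%. Psma2 held CCAAT at -54 and Psma3 held it at 3 places. Psmd7 had no window and was not searched. Of the 5 higher genes with a window, 2 held each motif. TGACNNNGC also lay in the windows of Psmb6, Psmc6, Psmd12 and Psme4, none of which was called. A match describes the letters of a window and not binding, and factor binding was not measured.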

How the data were processed

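Per the labels' protocols, oligo-dT priming with template switching, PCR and tagmentation gave paired-end libraries, which do not mark strand. The counts deposited by the authors are whole numbers for each exon ID. The submitters' processing notes name STAR, HTSeq and the build mm10; their versions and options are not given in the sources. Reads meeting several exon IDs were set apart as ambiguous (73.8% of reads in controls, 79.3% in the cKO), so a low count is not low expression; 85.3% of counts lie on exons that end a transcript.

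Exon IDs were matched to GENCODE M21 (99.59% of 496288; the rest hold 0.2524% of counts) and summed per gene. The 5 summary rows per file stayed out. Genes kept by filterByExpr (minimum count 10) were scaled by TMM and tested with edgeR 4.0.16 (R 4.3.3), two-sided, with group as the only term, Benjamini-Hochberg adjusted p under 0.05; exon usage with diffSpliceDGE. A standard error is the log2 fold change over the root of F; intervals are 95% normal intervals. Scripts were tested on simulated data. Every proteasome gene is named; of the other lists, the called genes (at most 8) with Nfe2l1 and Pomp, and all tested antigen presentation genes. Members and lists were chosen with earlier results of these data known. Alternatives were other scalings, DESeq2 1.42.0, other filters, exon subsets, a replicate block and each library left out.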

Additional observations from a re-analysis of the deposited data

Results flagged for a closer look

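A library was set apart where its distance to the nearest of the other 3, divided by the range of its group, exceeded Dixon's 95% critical value. Of 90 groups of 4 libraries examined 8 met this, and chance gives about 1 in 20. Psma1 was at 8.65 CPM in control library 1, against 5.26 to 5.50 CPM in the other controls. Psma3 was at 7.86 CPM in cKO library 4, against 3.61 to 3.77 CPM, and its call was lost without that library. Psmb6 was at 3.19 CPM in cKO library 2, against 1.77 to 1.93 CPM, and Psmd14 at 28.6 CPM in cKO library 1, against 21.9 to 22.7 CPM. The summed tissue-specific beta subunits were at 6.65 CPM in cKO library 1, against 4.87 to 5.10 CPM. The summed 19S ATPases were at 205.3 CPM in cKO library 3, against 239.3 to 246.0 CPM. That library also had the highest share of ambiguous reads, 80.4% against 78.8% to 79.0%. The summed oocyte markers were at 46509 CPM in control library 3, against 33711 to 35616 CPM.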

How the results depend on the processing

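The count of 6 proteasome genes called higher and 1 lower was recomputed under 10 other settings and with each library left out. Psmb5, Psmd9, Psme2b, Psma2 and Psmb11 kept their calls in each of these fits that could test them, while Psmd7 lost its call with last exons left out and Psma3 without control library 2, 3 or 4 or cKO library 4. Scaling by library size only called 10 higher, adding Psma4, Psmb3, Psmc5 and Psmd14, and moved the median log2 fold change of all genes by 0.157. Protein-coding genes only and last exons only each called 2 lower, Psmb11 and Psme4. With last exons left out 16 genes could be tested, and Psmb4, Psmb5, Psmc5 and Psmd14 were called higher. Leaving out 1 library gave 5 to 7 higher and 1 to 2 lower, with Psme4 as the second lower gene without control library 3 or cKO library 3.

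Of the other ubiquitin-proteasome genes, 2 were called higher with last exons left out, where only 11 could be tested. The number was 5 to 9 when 1 library was left out. The count of 2 called lower was 1 with upper-quartile scaling or the replicate block (Ddi2) and also 1 without a low-count filter. It was 0 in edgeR with library size only or last exons left out, where none had an unadjusted p under 0.05 either. With last exons left out, Ddi2 was not among the 11 genes tested, since its counts lay on a last exon only. DESeq2 called 2. Leaving out 1 library gave 0 to 2: 0 without control library 1, 2 or 4 or cKO library 1, 2 or 4 (0 to 2 at an unadjusted p under 0.05, edgeR), and 1 without cKO library 3. Over all genes, a mean of at least 10 CPM gave 1837 higher and 1922 lower, and last exons left out 973 and 995, of fewer genes tested. Exon usage called 4 proteasome genes, 5 with at least 10 counts per exon, and 3 to 4 when 1 library was left out.

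Signs turned in several proteasome genes that were not called, and in Ube3c, which was. With library size only, Psmb1 was at 0.12, Psmc6 at 0.072 and Psmd5 at 0.13. With protein-coding genes only, Psmc1 was at -0.0062, Psmc2 at -0.044 and Psme3 at -0.022. With last exons left out, Psmb1 was at 0.14, Psmc6 at 0.45, Psme4 at 0.11 and Ube3c at -0.089. With last exons only, Psmd14 was at -0.043 and Psmf1 at 2.64. With 1 library left out, Psmb1 ranged over -0.10 to 0.081, Psmc6 over -0.20 to 0.038, Psmd5 over -0.15 to 0.20, Psmc2 over -0.052 to 0.19 and Psme3 over -0.046 to 0.15. The cause was not tested.

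With the replicate number as a block 7 proteasome genes were called higher (Psmd14 joined) and 1 lower, and exon usage called 4. The numbers share nothing in the labels: same-numbered libraries had deviations correlated at 0.098, -0.047, 0.098 and 0.064, and 2 of 4 correlated best with their own number. Counts limit the reading of Psma3, Psmb6, Psmg2 and the 22 genes not tested.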
